A study of Mus musculus with 3 samples.

Results

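The acute-phase and antimicrobial defence genes described here are *Saa3*, *Lcn2*, *Lbp*, *Ptx3*, *Hp*, *Serpina3n*, *Slpi*, *Acod1*, *S100a8* and *S100a9*, 10 of the 32285 genes counted in every library. They were chosen by name, with earlier results on these libraries known, and each was found by its Ensembl identifier in all 3 count matrices. Their unique molecular identifiers (UMIs; 1 for every mRNA molecule that was captured) were summed by day and by cell class.

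Wounded skin of the inbred mouse strain C57BL/6J was harvested 3, 7 or 14 days after injury, and its cells were sequenced one by one in droplets to follow cell populations through healing. The mice were genetically unmodified males, 7 to 12 weeks old. The wounds were full-thickness punch wounds by the published methods and incisional by the submitters' design text. Tissue from 4 wounds was pooled, red blood cells were lysed and the cells were captured unsorted; with no unwounded skin and 1 library per day, differences between days could not be checked against replicates and no test is given.

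The Day 3, 7 and 14 libraries held 5158, 22924 and 16611 barcodes with 38133650, 120940799 and 112713257 UMIs, and 4360, 19590 and 13510 cells were kept. The fibroblast-like class held 506, 6312 and 6299 cells, the macrophage-like class, monocytes included, 2695, 9474 and 3233, and the neutrophil-like class 867, 1653 and 21. All 8 fibroblast markers (such as *Dcn* and *Col1a1*) and all 9 macrophage and 9 neutrophil markers (such as *Csf1r* and *Csf3r*) were detected in their classes, which were named from these lists. Detection alone does not separate the classes, since all 8 fibroblast markers were also found, at lower summed levels, in macrophage-like and neutrophil-like cells of Days 3 and 7. No marker list includes any of the 10 genes. Smaller classes were dendritic cell-like (253, 1221 and 529 cells), endothelial cell-like (13, 236 and 240), pericyte-like (10, 183 and 430), T cell-like (11, 388 and 312), epithelial cell-like (1, 40 and 750) and Schwann cell-like (0, 10 and 142). Values are given for classes of at least 50 cells in a library unless the cell number is stated. Fibroblast-like cells of Day 3 were far deeper, with a median of 38476 UMIs per cell against 10050.5 on Day 7 and 9364 on Day 14. The pairs of libraries shared 43 (Day 3 and Day 7), 19 (Day 3 and Day 14) and 111 (Day 7 and Day 14) barcode sequences. Levels are given as CPM, the UMIs of a gene scaled to the sum of all UMIs of the class. Intervals are at 95% and cover counting error alone: exact Poisson for CPM, Clopper-Pearson for shares, and a conditional exact binomial for ratios of CPM. A ratio therefore compares 2 libraries and not the days themselves.

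The acute-phase response is the change in secreted defence proteins that follows injury or infection, driven in the liver chiefly by interleukin-6 and interleukin-1 through the transcription factors STAT3, C/EBP and NF-kappaB. Several of these genes are also switched on locally in injured skin, by fibroblasts, epithelium and endothelium. Serum amyloid A3 (*Saa3*), pentraxin 3 (*Ptx3*) and lipopolysaccharide-binding protein (*Lbp*) recognise microbes or their products, and haptoglobin (*Hp*) binds free haemoglobin. *Serpina3n* and *Slpi* encode inhibitors of neutrophil proteases, and *Lcn2* encodes lipocalin 2, which withholds iron by binding bacterial siderophores. *Acod1* encodes the enzyme that makes itaconate in activated myeloid cells, and *S100a8* and *S100a9* encode the calprotectin subunits, which bind zinc, manganese and calcium and are stored in bulk in neutrophil cytoplasm.

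On mm10 the genes lie on 6 autosomes according to GENCODE. *Saa3* is at chr7:46711998-46715700 (minus strand), *Ptx3* at chr3:66219910-66225805 (plus), *Lbp* at chr2:158306493-158332852 (plus), *Serpina3n* at chr12:104406729-104414329 (plus), *Hp* at chr8:109575128-109579172 (minus) and *Lcn2* at chr2:32384633-32388252 (minus). *Slpi* is at chr2:164354070-164389095 (minus), *Acod1* at chr14:103046977-103056573 (plus), *S100a8* at chr3:90668978-90670035 (plus) and *S100a9* at chr3:90692632-90695721 (minus). All are protein coding. *Ptx3* lies inside *Veph1*, which is read from the other strand, and *Slpi* overlaps the microRNA gene *Mir7678* on its own strand. *Saa3* and *Serpina3n* belong to families of similar neighbouring genes, so a part of their UMIs could have been assigned to or lost to a relative.

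Promoter windows from RefSeq (GRCm38.p6, 250 bases before to 50 after the annotated start) were found for 8 of the 10 genes, *Lbp* and *Hp* being the others. The windows of *Saa3* and *Ptx3*, the most abundant of the genes in fibroblast-like cells, and of *Lcn2*, *S100a8* and *S100a9*, which were highest in neutrophil-like cells, are shown 5′ to 3′ on the strand of the gene, with matches to the searched motifs in capitals.
Saa3: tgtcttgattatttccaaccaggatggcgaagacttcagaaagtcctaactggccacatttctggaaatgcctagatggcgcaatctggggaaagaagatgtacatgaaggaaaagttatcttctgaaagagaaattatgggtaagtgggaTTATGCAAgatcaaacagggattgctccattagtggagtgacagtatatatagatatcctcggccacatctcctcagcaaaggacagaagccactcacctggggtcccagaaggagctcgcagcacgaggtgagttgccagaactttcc
Ptx3: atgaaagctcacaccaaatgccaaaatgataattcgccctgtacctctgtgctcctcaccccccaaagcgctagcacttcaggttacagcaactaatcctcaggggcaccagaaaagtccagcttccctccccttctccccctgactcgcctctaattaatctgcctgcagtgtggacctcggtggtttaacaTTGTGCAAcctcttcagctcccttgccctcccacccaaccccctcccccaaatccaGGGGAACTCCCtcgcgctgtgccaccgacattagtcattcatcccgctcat
Lcn2: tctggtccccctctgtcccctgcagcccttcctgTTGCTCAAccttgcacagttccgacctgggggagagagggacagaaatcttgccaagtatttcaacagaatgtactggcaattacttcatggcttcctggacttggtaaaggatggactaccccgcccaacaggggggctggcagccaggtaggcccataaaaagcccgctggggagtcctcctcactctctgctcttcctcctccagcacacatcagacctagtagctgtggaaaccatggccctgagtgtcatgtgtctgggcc
S100a8: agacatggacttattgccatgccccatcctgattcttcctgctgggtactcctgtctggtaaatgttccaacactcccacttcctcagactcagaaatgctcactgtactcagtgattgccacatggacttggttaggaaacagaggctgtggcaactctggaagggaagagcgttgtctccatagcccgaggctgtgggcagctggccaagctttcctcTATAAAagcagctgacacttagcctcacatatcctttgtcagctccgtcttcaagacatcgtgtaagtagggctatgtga
S100a9: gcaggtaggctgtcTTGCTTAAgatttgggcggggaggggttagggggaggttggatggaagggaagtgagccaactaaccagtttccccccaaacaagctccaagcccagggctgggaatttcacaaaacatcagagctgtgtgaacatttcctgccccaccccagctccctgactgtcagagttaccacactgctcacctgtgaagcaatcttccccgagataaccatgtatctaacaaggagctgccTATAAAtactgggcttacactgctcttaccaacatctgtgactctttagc
The windows are chr7:46715627-46715926 (minus strand) for *Saa3*, chr3:66219637-66219936 (plus) for *Ptx3*, chr2:32387690-32387989 (minus) for *Lcn2*, chr3:90668821-90669120 (plus) for *S100a8* and chr3:90695672-90695971 (minus) for *S100a9*. A C/EBP motif, TTGCNNAA read on either strand, was present in the windows of 5 of the 8 genes (*Saa3*, *Lcn2*, *Ptx3*, *Slpi* and *S100a9*) and in 10.8% of 32841 windows of all genes. A TATA box, TATAAA on either strand, was present in 3 of 8 (*Acod1*, *S100a8* and *S100a9*) and in 13.6% of all windows. The matches began at base -28 from the annotated start in *Acod1*, at -30 in *S100a8* and at the start itself in *S100a9*. The NF-kappaB motif, searched by its 10-base consensus on both strands, matched in *Ptx3*, where 2 overlapping matches lie at the start site, and in 4.51% of all windows. Neither the STAT motif TTCNNNGAA (8.30% of all windows) nor the AP-1 motif TGANTCA (7.81%) matched in any of the 8. None of the searched motifs matched in *Serpina3n*. A match describes letters in the window and not a bound site.

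The 10 genes divided by the class in which they were highest. *Saa3*, *Ptx3*, *Lbp* and *Serpina3n* were highest in fibroblast-like cells on Days 3 and 7, and *S100a8*, *S100a9*, *Slpi*, *Acod1*, *Lcn2* and *Hp* in neutrophil-like cells. On Day 14, when only 21 neutrophil-like cells were kept, the order among the larger classes was different for several genes: endothelial cell-like cells were highest for *Lcn2*, and they and fibroblast-like cells were at about the same level for *Lbp* (ratio 1.11, 0.96 to 1.28), while macrophage-like cells were highest for *Hp* and dendritic cell-like cells for *Slpi*. In those 21 cells *Lcn2* was at 1302 CPM, *Slpi* at 10641 CPM and *Hp* at 521 CPM, above all of the larger classes.

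**Figure D1:**
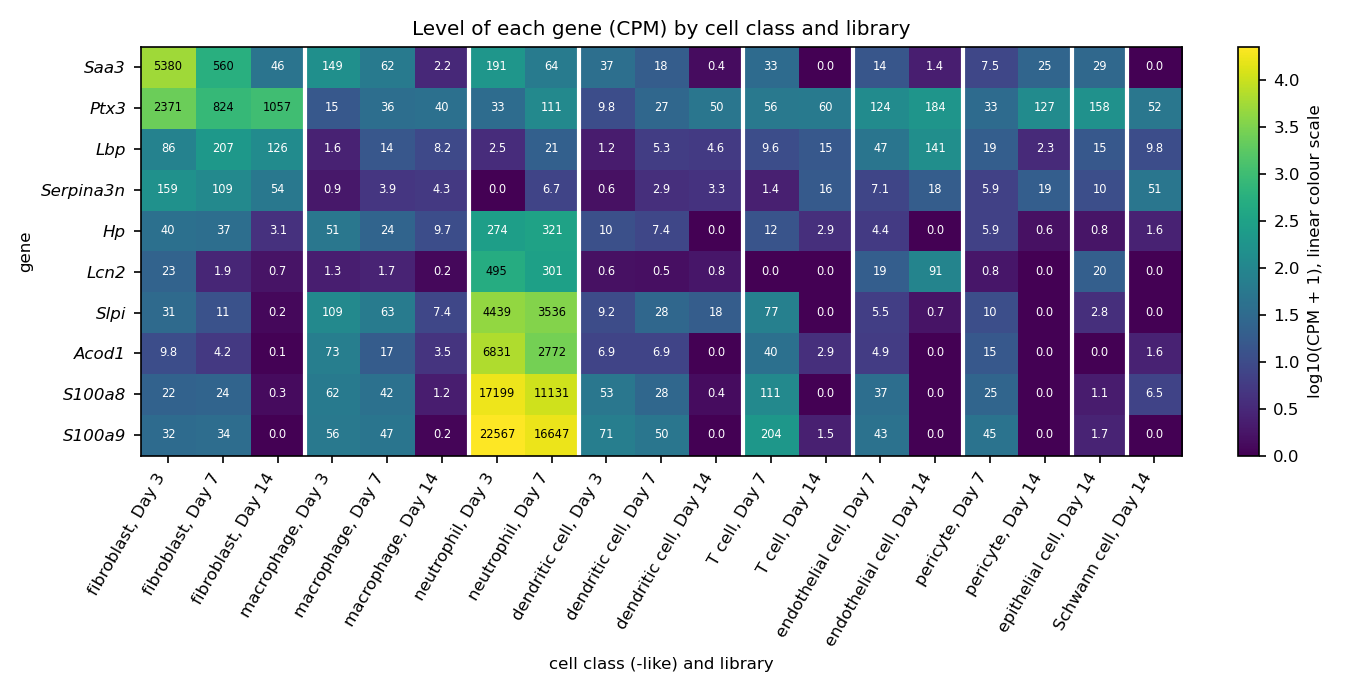
CPM of each gene (rows) in each cell class and library with at least 50 cells (columns), coloured by log10(CPM + 1) with the CPM printed in each cell. The upper 4 rows are brightest under fibroblast-like cells and the lower rows under neutrophil-like cells, where *S100a9* reached 22567 CPM on Day 3.

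*Saa3* in fibroblast-like cells was at 5379.8 CPM (5348 to 5412) in the Day 3 library, 560.1 CPM (554 to 566) in the Day 7 library and 46.0 CPM (44.2 to 47.7) in the Day 14 library. On Day 14, 1 cell held 513 of the 2684 UMIs, and the level without it was 37.2 CPM (35.6 to 38.8). The Day 7 library was lower than the Day 3 library by a log2 ratio of -3.26 (-3.28 to -3.25), and the Day 14 library lower than the Day 7 library by -3.61 (-3.66 to -3.55). On Day 3 the gene alone took 0.538% of the UMIs of the class. Macrophage-like cells had 149, 61.8 and 2.17 CPM, and neutrophil-like cells 191 and 63.6 CPM. The level thus was lower in each later library in these 3 classes, and it was 36.2-fold (34.5 to 37.9) higher in fibroblast-like than in macrophage-like cells on Day 3 and 9.06-fold (8.63 to 9.53) on Day 7. The summed level of the 8 fibroblast markers was 67544 and 114790 CPM in fibroblast-like cells on Days 3 and 7. It was 418 and 3923 CPM in macrophage-like and 826 and 10104 CPM in neutrophil-like cells, and its part in their *Saa3* values was not tested. Fibroblast-like cells held 96.2%, 94.6% and 76.7% of all *Saa3* UMIs of kept cells on Days 3, 7 and 14. They were 11.6%, 32.2% and 46.6% of the cells and held 56.1%, 63.9% and 59.8% of all UMIs. The Day 14 share leaves out the unnamed cluster 10, described below, with all 8 fibroblast markers and 41.1 CPM of *Saa3* in 1496 cells. Unnamed cells held 14.9% of all UMIs on Day 14, against 0.247% on Day 7. Pericyte-like cells had 7.53 CPM (3.44 to 14.3; 9 UMIs) on Day 7 and 25.4 CPM (18.5 to 33.97; 45 UMIs) on Day 14, a log2 ratio of 1.75 (0.70 to 2.97), but 1 cell held 41 of the 45 UMIs. Without that cell the Day 14 level was 2.28 CPM (0.621 to 5.84) and the log2 ratio -1.72, so the direction rested on 1 cell. Epithelial cell-like cells had 28.9 CPM on Day 14, of which 1 cell held 146 of 152 UMIs, and 1.14 CPM without it.

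*Saa3* was spread very unevenly over fibroblast-like cells. On Day 3 the median cell had 1368 CPM and the highest 103161 CPM. The most *Saa3* UMIs in any 1 cell were 4733, and the 51 cells with the most *Saa3* UMIs held 56.8% of them. On Day 7 the median cell had 0 UMIs, and the 631 cells with the most held 96.6%. After thinning every cell to 500 UMIs, 47.8% (43.4 to 52.3) of fibroblast-like cells had a *Saa3* UMI on Day 3, 7.57% on Day 7 and 0.714% on Day 14, against 79.2%, 22.9% and 2.29% without thinning. The drop in the class level between libraries was therefore seen both as fewer cells with a UMI at equal depth and as fewer UMIs in all.

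*Ptx3* also was highest in fibroblast-like cells, but did not decline steadily. Its level was highest in the Day 3 library, with 2371 CPM (2350.1 to 2393), lowest in the Day 7 library, with 824 CPM (817 to 831), and between them on Day 14, with 1057 CPM (1049 to 1066). The log2 ratios were -1.53 (-1.54 to -1.51) and then 0.36 (0.34 to 0.38), the latter under a 2-fold difference. UMIs of *Saa3* per UMI of *Ptx3* in these cells numbered 2.27 in the Day 3, 0.680 in the Day 7 and 0.0435 in the Day 14 library, a within-library ratio that does not depend on how the libraries were scaled. Fibroblast-like cells held 99.5%, 96.9% and 91.9% of *Ptx3* UMIs, the Day 14 share leaving out the unnamed cluster 10, at 240 CPM of *Ptx3*. Other classes had much lower levels that were higher on Day 7 than on Day 3: 14.6 and 35.7 CPM in macrophage-like, 33.1 and 111 CPM in neutrophil-like and 9.78 and 27.2 CPM in dendritic cell-like cells. The summed level of the 8 fibroblast markers was also higher on Day 7 in these classes, at 418 and 3923 CPM in macrophage-like, 826 and 10104 CPM in neutrophil-like and 383 and 3381 CPM in dendritic cell-like cells, and its part in their *Ptx3* and *Lbp* values was not tested. On Day 14 endothelial cell-like cells had 184 CPM, epithelial cell-like cells 158 CPM and pericyte-like cells 127 CPM.

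*Lbp* had the opposite pattern over the first 2 libraries. In fibroblast-like cells the Day 7 level was the highest, at 207 CPM (203 to 210.1), against 85.8 CPM (81.8 to 89.99) for Day 3 and 126 CPM (124 to 129) for Day 14. The log2 ratios were 1.27 (1.19 to 1.34) and -0.71 (-0.75 to -0.67), so *Lbp* was the only gene of the 10 that was at least 2-fold higher on Day 7 than on Day 3 in these cells. The first of these ratios was 0.31 when clusters present in both libraries were weighted equally. Fibroblast-like cells held 94.8%, 95.5% and 79.8% of its UMIs, the Day 14 share leaving out the unnamed cluster 10, at 101 CPM of *Lbp*.

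*Serpina3n* in fibroblast-like cells was lower in each later library, with 159 CPM (153 to 165) for Day 3, 109 CPM (107 to 112) for Day 7 and 54.3 CPM (52.4 to 56.2) for Day 14. The log2 ratios were -0.54 (-0.60 to -0.48) and -1.01 (-1.07 to -0.95). Neutrophil-like cells held 0 UMIs on Day 3, which allows up to 2.55 CPM (3 counts), and macrophage-like cells stayed at or below 4.26 CPM. On Day 14 the level was highest, at 276 CPM (267 to 285), in cluster 10, a set of 1496 cells that had all 8 fibroblast markers but stayed unnamed because the pericyte marker *Ndufa4l2* was among its 10 leading genes with no fibroblast marker there. That level was 5.08-fold (4.85 to 5.33) the level of fibroblast-like cells, and the unnamed cells held 53.9% of *Serpina3n* UMIs on Day 14 against 43.2% in the fibroblast-like class. With cluster 10 counted in the class, the Day 14 to Day 7 log2 ratio was -0.17 instead of -1.01, and the gene also missed the limit in most other alternatives, 12 of 19 in all including a limit of 4-fold, with log2 ratios from -1.04 to -0.11. Schwann cell-like cells had 50.6 CPM (34.4 to 71.9) on Day 14, in a class that carried all 5 melanocyte markers (3289 CPM in sum) beside its 6 Schwann cell markers (4008 CPM).

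The fibroblast-like class was made of different clusters in each library. On Day 3 clusters 8 (with *Cxcl5*, *Serpinb2* and *Saa3* itself among its leading genes) and 21 (led by the proliferation genes *Top2a* and *Ube2c*) held 45.1% and 32.2% of its cells. Cluster 16, of low depth (a median of 1096 UMIs over all libraries), held 19.8% of its Day 3 cells but 0.66% of their UMIs. The values per cell given above for Day 3 include these cells. On Day 7 clusters 7 (*Col12a1*, *Tnc* and *Acta2*), 8, 5 (*Pi16* and *Cd55*) and 17 (*C3* and *Lbp* itself) held 27.7%, 24.6%, 16.5% and 10.6%, and on Day 14 clusters 1 (*Mgp* and *Ptn*), 11 (*Eln* and *Cilp*), 5 and 19 (*Igfbp3* and *Prlr*) held 36.9%, 23.1%, 14.3% and 11.5%. The 10 genes were kept out of the clustering, and comparisons within a cluster are given as descriptions.

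Within cluster 8, *Saa3* was at 7612 CPM on Day 3 and 1035 CPM on Day 7 (log2 ratio -2.88, -2.90 to -2.86), and *Ptx3* at 3068 and 1488 CPM (-1.04, -1.07 to -1.02). Within cluster 21, *Saa3* was at 3165 and 584 CPM and *Ptx3* at 1755 and 394 CPM. Both genes were thus lower on Day 7 in each of the clusters that made up most of the Day 3 class. *Lbp* was at 124 CPM on Day 3 and 168 CPM on Day 7 in cluster 8 (0.44, 0.35 to 0.54), and at 46.2 and 36.3 CPM in cluster 21 (-0.35, -0.59 to -0.11), while on Day 7 it reached 543 CPM in cluster 5 and 474 CPM in cluster 17, of which Day 3 had 1 and 2 cells. Cluster 7, with 5 cells on Day 3, was also nearly absent there, and its Day 7 level was 25.4 CPM. Within the shared clusters 8 and 21 the difference was thus under 2-fold and of either sign.

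From Day 7 to Day 14 the clusters of *Pi16* and *Mgp* cells showed *Lbp* and *Ptx3* moving apart. In cluster 5 *Lbp* was at 543 CPM on Day 7 and 168 CPM on Day 14 (log2 ratio -1.70, -1.78 to -1.61), and in cluster 1 at 372 and 123 CPM (-1.60, -1.70 to -1.51). *Ptx3* was at 1035 and 2379 CPM in cluster 5 (1.20, 1.16 to 1.24) and at 673 and 1016 CPM in cluster 1 (0.59, 0.53 to 0.65). *Lbp* was thus over 2-fold lower inside both clusters, although the class as a whole differed by less than 2-fold, and *Ptx3* was higher in both. *Serpina3n* was lower in each of the clusters 1, 5 and 17, at 180.4 and 63.2, 129 and 40.4, and 259 and 86.5 CPM. The fibroblast-like clusters 7, 11, 16 and 19 also had at least 50 cells in both libraries, and their ratios are not given here. *Saa3* in cluster 17 was at 920 CPM on Day 7 and 157 CPM on Day 14, the highest cluster level of that gene on Day 14 among clusters of at least 50 cells.

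**Figure D2:**
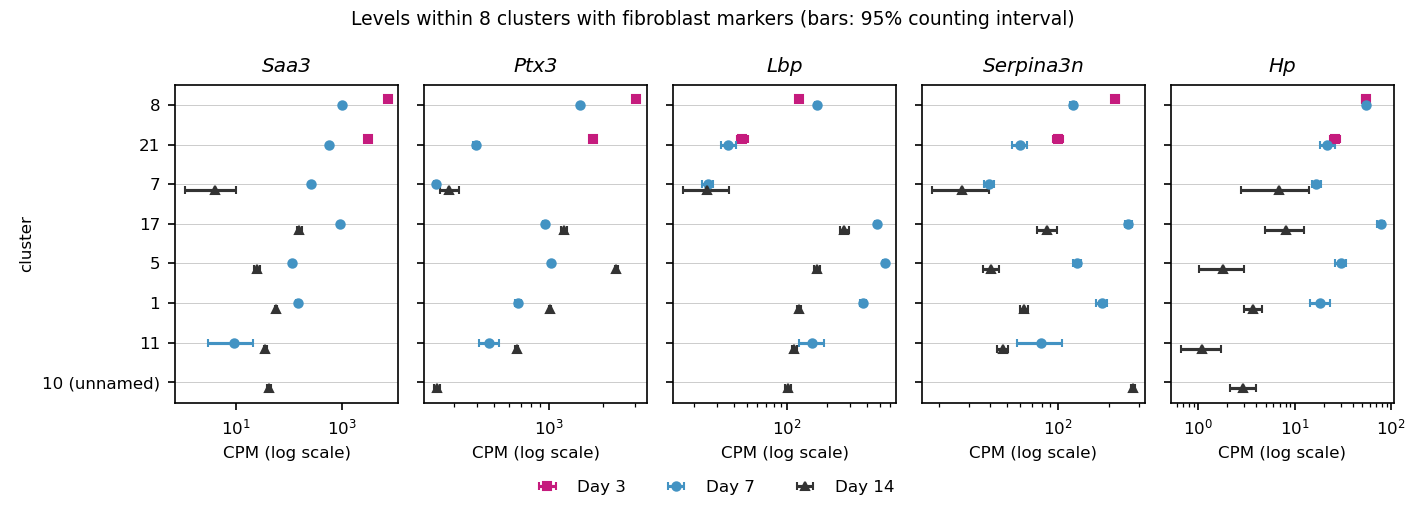
CPM (log scale) of 5 genes in 8 clusters that carry fibroblast markers, with 1 symbol per library (square Day 3, circle Day 7, triangle Day 14) and 95% counting intervals; clusters with under 50 cells in a library, or with 0 UMIs, have no symbol. *Saa3* lies furthest right on Day 3 in clusters 8 and 21, *Ptx3* lies further right on Day 14 than on Day 7 in cluster 5, and *Serpina3n* lies furthest right on Day 14 in cluster 10.

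*Hp* was shared among 3 classes. Neutrophil-like cells had 274 CPM (245 to 305) in the Day 3 and 321 CPM (292 to 353) in the Day 7 library, macrophage-like cells 51.3, 24.1 and 9.72 CPM over the 3 libraries, and fibroblast-like cells 39.9, 36.6 and 3.12 CPM. The 21 neutrophil-like cells of Day 14 had 521 CPM (285 to 874, 14 UMIs). Fibroblast-like cells, which held 56.1%, 63.9% and 59.8% of all UMIs, nevertheless held more *Hp* UMIs than any other class in each library, 44.8%, 67.6% and 49.6%, with 18.2%, 12.3% and 3.81% in neutrophil-like cells. The Day 14 share of fibroblast-like cells leaves out the unnamed cluster 10, at 2.93 CPM of *Hp*. The fibroblast-like level hardly differed between Days 3 and 7 (log2 ratio -0.12, -0.24 to -0.00) and was much lower on Day 14 (-3.56, -3.78 to -3.34). Within fibroblast-like cells on Day 7 *Hp* was highest in cluster 17 (77.4 CPM) and cluster 8 (55.0 CPM, against 54.3 CPM on Day 3), and in cluster 17 it was at 8.01 CPM on Day 14. After thinning to 2000 UMIs, 47.8% of Day 7 fibroblast-like cells with an *Hp* UMI also had one of *Saa3*, against 13.3% of all such cells.

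Macrophage-like cells did not carry *Hp* evenly. In cluster 3, led by *Ccr2* and class II antigen presentation genes, *Hp* was at 56.2 CPM on Day 3, 72.2 CPM on Day 7 and 98.5 CPM (80.7 to 119) on Day 14, and so did not follow the lower class level. In cluster 2, led by *Ccl8*, *Mrc1* and *C1qb*, it was at 3.37 CPM on Day 7 and 0.197 CPM (1 UMI) on Day 14. The Day 14 cells of cluster 3 held 0 UMIs of *S100a8* and of *S100a9*, which allows up to 2.79 CPM (3 counts) for each, where the whole class held 15 and 2, and on Day 7 cluster 3 was at 33.5 and 42.0 CPM of them. The class moved from cluster 6 (*Arg1* and *Cxcl3*) and cluster 14 (*Rsad2* and *Ly6c2*), with 45.2% and 32.7% of cells on Day 3, to cluster 2, with 43.6% on Day 14, while cluster 3 was 18.9% of it on Day 7 and 9.65% on Day 14.

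The class with the largest share of *Lcn2* UMIs changed between libraries. Neutrophil-like cells had 495 CPM (456 to 537) in the Day 3 and 301 CPM (272 to 332) in the Day 7 library, and fibroblast-like cells 23.3 CPM (21.2 to 25.5), 1.88 CPM and 0.685 CPM on Days 3, 7 and 14. The 21 neutrophil-like cells of Day 14 had 1302 CPM (907 to 1811, 35 UMIs). Fibroblast-like cells held 41.2% of *Lcn2* UMIs on Day 3 and neutrophil-like cells 52.0%. The Day 3 fibroblast-like level was 4.70% of the neutrophil-like level, whereas the neutrophil markers in the same cells had a median of 0.213% and a highest value of 0.988% of theirs, so *Lcn2* lay above the whole range of those 9 markers. It was lower on Day 7 by a log2 ratio of -3.63 (-3.93 to -3.34) in the class and from 31.8 to 2.05 CPM within cluster 8. On Day 14, 41.6% of *Lcn2* UMIs were in endothelial cell-like and 32.2% in epithelial cell-like cells, at 90.8 CPM (76.0 to 108) and 19.6 CPM (15.96 to 23.7).

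The endothelial *Lcn2* belonged mostly to cluster 30, which was led by *Ccl21a*, *Mmrn1*, *Lyve1* and *Prox1*, genes known from lymphatic vessels, and held 56 cells on Day 7 and 52 on Day 14. *Lcn2* was at 53.9 and 231 CPM there (log2 ratio 2.10, 1.48 to 2.77), against 5.98 and 9.71 CPM in cluster 25, led by *Fabp4*, *Pecam1* and *Selp*. *Lbp* was at 120 and 335 CPM in cluster 30 (1.48, 1.04 to 1.93) and at 20.9 and 28.0 CPM in cluster 25. *Ptx3* was at 293 and 316 CPM in cluster 30 and at 62.8 and 107 CPM in cluster 25. All 3 genes were thus higher in cluster 30 in both libraries, by 23.7-fold (12.1 to 53.1) for *Lcn2* and 11.9-fold (7.88 to 18.8) for *Lbp* on Day 14. In the scores used for naming, fibroblast markers came second in cluster 30 (1.73) and scored 0.0 in cluster 25, and their part in this contrast was not tested. Of all endothelial cell-like cells of Day 14, 1 held 20 of 133 *Lcn2* UMIs and 1 held 32 of 206 *Lbp* UMIs. In epithelial cell-like cells of Day 14 cluster 23, led by the basal keratins *Krt14* and *Krt5*, held 100% of the *Lcn2* UMIs, at 40.01 CPM (103 UMIs). Cluster 26, led by *Krtdap*, *Krt1* and *Krt10* of the upper epidermis, had 0 UMIs, which allows up to 1.32 CPM (3 counts).

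**Figure D3:**
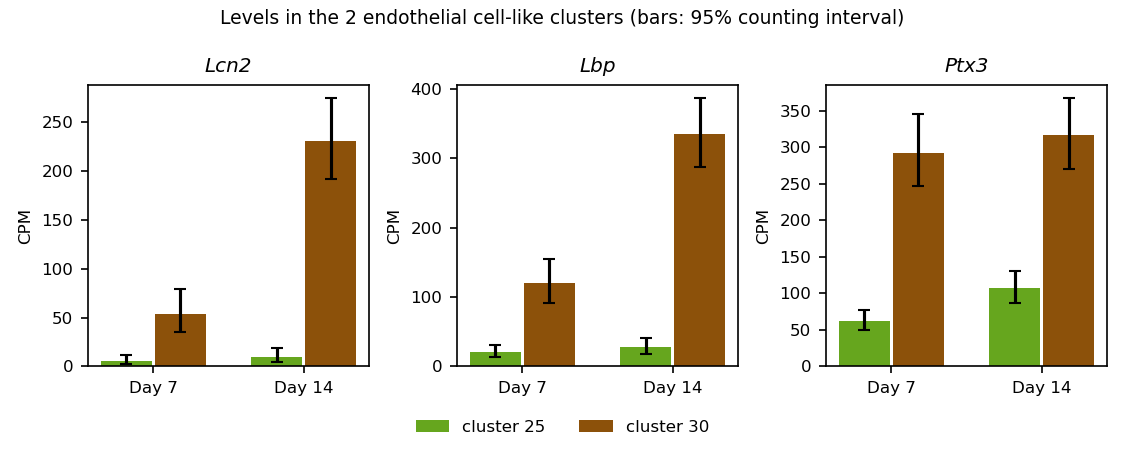
CPM of *Lcn2*, *Lbp* and *Ptx3* in the endothelial cell-like clusters 25 and 30 on Days 7 and 14 (linear axes from 0, bars with 95% counting intervals). The bars of cluster 30 are higher for each gene on both days, and its *Lcn2* bar reaches 231 CPM on Day 14.

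*S100a8* and *S100a9* were the most concentrated of the genes. Neutrophil-like cells had 17199 CPM (16963 to 17437) of *S100a8* in the Day 3 library and 11131 CPM (10953 to 11312) in the Day 7 library, and 22567 CPM (22297 to 22840.3) and 16647 CPM (16429 to 16868) of *S100a9*. Of the UMIs of kept cells, these cells held 93.8%, 83.1% and 93.6% of *S100a8* and 94.8%, 84.6% and 97.6% of *S100a9* on Days 3, 7 and 14. Barcodes left out on Day 7 as doublets or under the gene minimum held 4747 *S100a8* and 7017 *S100a9* UMIs more, against 14867 and 22234 in neutrophil-like cells. The 21 neutrophil-like cells of Day 14, 0.155% of the cells, had 28351 CPM (26374 to 30438) of *S100a8* and 22659 CPM (20895 to 24532) of *S100a9*. Both genes thus stayed near or above 1% of the UMIs of the class wherever neutrophil-like cells were found. The number of *S100a8* UMIs per *S100a9* UMI was 0.762 (0.748 to 0.776) for Day 3, 0.669 (0.655 to 0.683) for Day 7 and 1.25 (1.12 to 1.39) for the 21 cells of Day 14.

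The neutrophil-like class also was made of different clusters, with 89.4% of its Day 3 cells in cluster 18 and 94.1% of its Day 7 cells in cluster 9, and its median UMIs per cell were 1227 and 712. Within cluster 18 *S100a9* was at 23006 CPM on Day 3 and 23185 CPM on Day 7, and within cluster 9 at 16524 and 15964 CPM. Within a cluster, therefore, *S100a9* differed by a log2 ratio of at most 0.05 in size between the libraries, against -0.44 (-0.46 to -0.41) for the class. *S100a8* was lower on Day 7 within both, by -0.34 (-0.41 to -0.27) in cluster 18 and -0.20 (-0.29 to -0.11) in cluster 9. Over 17 alternatives the ratio of the class ran from -1.96 to -0.019 for *S100a9* and from -2.28 to -0.23 for *S100a8*.

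*Slpi* followed the calprotectin genes in neutrophil-like cells, with 4439 CPM (4319 to 4561) for Day 3 and 3536 CPM (3435 to 3638) for Day 7. The 21 neutrophil-like cells of Day 14 had 10641 CPM (9443 to 11948.5, 286 UMIs). It was at 109, 63.4 and 7.39 CPM in macrophage-like cells. Of the macrophage-like *Slpi* UMIs of Day 7, 47.6% were in cluster 6, where the gene was at 131 CPM on Day 3 and 450.2 CPM (420 to 482) on Day 7 (log2 ratio 1.78, 1.63 to 1.94), 51.4-fold (34.8 to 79.2) the level of cluster 2. The class and this cluster thus differed in opposite directions, the cluster going from 1218 to 678 cells. In dendritic cell-like cells *Slpi* was at 9.21, 28.0 and 18.3 CPM, and cluster 29, led by *Siglech* and *Irf8*, genes of plasmacytoid dendritic cells, had 261 CPM in 93 cells on Day 7 and 287 CPM (208 to 387) in 33 cells on Day 14, of which 1 cell held 19 of 43 UMIs (165 CPM, 106 to 246, without it). Fibroblast-like cells had 31.1, 11.3 and 0.240 CPM.

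Neutrophil-like cells held 6831 CPM (6682 to 6982) of *Acod1* in the Day 3 library and 2772 CPM (2683 to 2863) in the Day 7 library, and 1451 CPM (1032 to 1984) in the 21 cells of Day 14. Over the class, Day 7 was lower than Day 3 by a log2 ratio of -1.30 (-1.36 to -1.24), which was -0.92 (-1.07 to -0.76) within cluster 9 and -0.83 (-0.96 to -0.70) within cluster 18, so the gene was lower in each cluster but by less than 2-fold. *Acod1* UMIs per *S100a8* UMI in these cells were 0.397 (0.387 to 0.408) on Day 3 and 0.249 (0.240 to 0.258) on Day 7. In macrophage-like cells *Acod1* was at 72.8, 17.1 and 3.53 CPM. Here the ratio to *S100a8* was 1.17 (1.06 to 1.29) for Day 3, 0.410 (0.367 to 0.458) for Day 7 and 2.93 (1.60 to 5.67) for Day 14, and the highest clusters were 6 on Day 3 (121 CPM) and 14 on Day 7 (98.4 CPM). Neutrophil-like cells held 88.1%, 78.8% and 42.4% of *Acod1* UMIs, and macrophage-like cells 47.8% on Day 14.

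**Figure D4:**
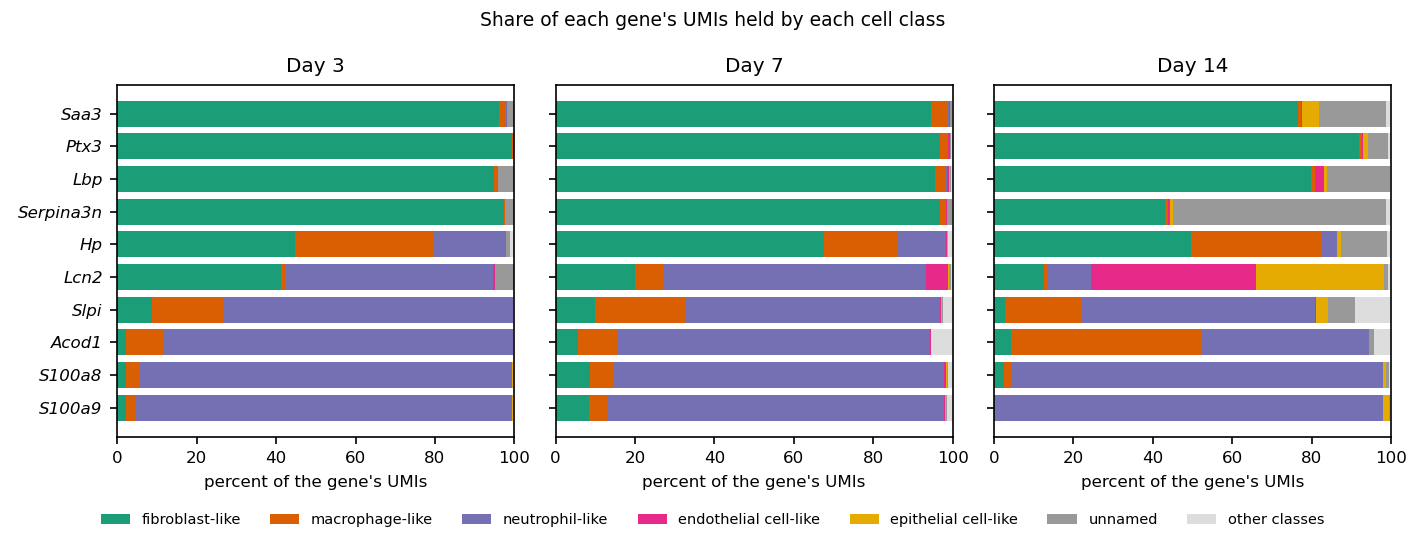
Percent of each gene's UMIs in kept cells that was held by each cell class in each library (bars sum to 100% per gene). *Saa3* and *Ptx3* are almost wholly fibroblast-like on Days 3 and 7, *S100a8* and *S100a9* are mainly neutrophil-like in every library, and on Day 14 *Lcn2* is held mainly by endothelial and epithelial cell-like cells and *Serpina3n* by unnamed cells.

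Low levels of the neutrophil genes in other classes need the background beside them. On Days 3 and 7 *S100a8* and *S100a9* in fibroblast-, macrophage-, dendritic, endothelial and pericyte-like cells were between 0.130% and 0.375% of the neutrophil-like level, and in T cell-like cells of Day 7 0.998% and 1.23%. Of the latter, 1 cell held 29 of 81 *S100a8* UMIs and 1 held 51 of 149 *S100a9* UMIs. Without such a cell the levels were 71.6 and 135 CPM, against 111 and 204 CPM. The 9 neutrophil markers, none of them among the 10 genes, had medians between 0.213% and 1.68% of their neutrophil-like level in the same classes, and their summed level was 63.9 CPM in fibroblast-like cells of Day 3 against 19410 CPM in neutrophil-like cells. Fibroblast-like cells had 0.707 (0.625 to 0.8001) *S100a8* UMIs per *S100a9* UMI on Day 3 and 0.694 (0.650 to 0.741) on Day 7, near the neutrophil-like ratios. Macrophage-like cells had 1.11 (0.996 to 1.23) and 0.881 (0.812 to 0.955), above them, and fibroblast-like cells of Day 14 held 20 *S100a8* UMIs and 1 of *S100a9*. The source of these UMIs was not tested. *Hp* in macrophage-like cells was at 18.7% of the neutrophil-like level on Day 3 and 7.501% on Day 7, and *Slpi* at 2.46% and 1.79%. All 4 values lay above the marker medians of that class (0.532% and 0.529%), but its highest markers were at 16.4% and 8.70%, so only *Hp* on Day 3 lay above the whole range.

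Counts of genes past a limit were read against all genes tested. A gene was counted when the 2 libraries differed at least 2-fold with a counting interval without 1, among genes with a mean of at least 10 CPM and at least 20 UMIs. Of the 45 differences counted for the 10 genes in all classes, 28 were of a gene under 10 CPM in 1 of the 2 libraries, which entered only through the library where it was high and so had to differ, and nothing is read from their excess over all genes. In fibroblast-like cells from Day 3 to Day 7, 1 of 9 genes (*Lbp*) was higher, where 4.49% of 7755 genes were, and 4 of 9 (*Saa3*, *Lcn2*, *Ptx3* and *Slpi*) were lower, where 9.04% were. Of the lower genes *Lcn2* entered through Day 3 alone. *Slpi* there lost the call in 5 of 19 alternatives, and its Day 3 level was 0.701% of the neutrophil-like level, inside the range of the 9 neutrophil markers in these cells (0.0803% to 0.988%). From Day 7 to Day 14, 0 of 7 were higher (2.41% of 7353 genes) and 5 of 7 lower (*Saa3*, *Hp*, *Serpina3n*, *S100a8* and *S100a9*; 3.11%), of which *Hp*, *S100a8* and *S100a9* entered through Day 7 alone. *S100a8* and *S100a9* in this count are the low levels described above, *S100a9* rested on 1 UMI on Day 14, and *Serpina3n* missed the limit in most alternatives.

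In macrophage-like cells from Day 3 to Day 7, 1 of 7 genes (*Ptx3*) was higher (2.43% of 7254 genes) and 3 of 7 (*Saa3*, *Hp* and *Acod1*) were lower (5.27%). With clusters present in both libraries weighted equally, 0 of these were lower by 2-fold, although *Saa3* was lower by a log2 ratio of -1.61 within cluster 13 and *Hp* by -1.42 within cluster 14. From Day 7 to Day 14, 0 of 8 were higher (2.5% of 7157 genes) and 6 of 8 (*Saa3*, *Hp*, *Slpi*, *Acod1*, *S100a8* and *S100a9*) were lower (3.27%), and these 6 all entered through Day 7 alone. With each library clustered alone *S100a8* and *S100a9* turned to 0.55 and 0.0088 there. In neutrophil-like cells from Day 3 to Day 7, 2 of 9 genes (*Lbp* and *Ptx3*) were higher, where 16.2% of 5352 genes were, and 2 of 9 (*Saa3* and *Acod1*) were lower, where 7.72% were. *Lbp* there entered through Day 7 alone. The share of higher genes was near the background, and *Ptx3* reversed to -1.59 when each cell took the class of its own marker score. With a minimum of 500 genes per cell, 1 gene was higher and 7 were lower. The share of all genes was not computed for that filter, so nothing is read from these 2 counts beyond their dependence on it.

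In endothelial cell-like cells from Day 7 to Day 14, 3 of 6 genes (*Lcn2*, *Lbp* and *Serpina3n*) were higher, where 5.61% of 8087 genes were, and 2 of 6 (*S100a8* and *S100a9*) were lower (8.97%). The log2 ratios of the first 3 were 2.28 (1.73 to 2.87), 1.57 (1.20 to 1.95) and 1.37 (0.36 to 2.45, on 13 and 27 UMIs). Without 1 Day 14 cell that held 7 of its 27 UMIs, *Serpina3n* was at 0.95 (-0.13 to 2.08) and not counted, and it lost the call in 8 of 17 alternatives. *Serpina3n* had entered through Day 14 alone, and *S100a8* and *S100a9* through Day 7 alone. The fibroblast markers of the class went from 6761 to 16652 CPM over the same libraries, and their part in these values was not tested. Only 1 gene was counted as higher when doublets were kept or cells were averaged, alternatives for which the share of all genes was not computed. In pericyte-like cells 3 of 6 (*Saa3*, *Ptx3* and *Serpina3n*) were higher (6.77% of 8007 genes) and 3 of 6 (*Lbp*, *S100a8* and *S100a9*) lower (12.7%). Of these, *Saa3* and *Serpina3n* entered through Day 14 alone, and *Lbp*, *S100a8* and *S100a9* through Day 7 alone. Without the 1 cell with the most UMIs of each gene in each library, only 2 of these 6 kept enough UMIs to be compared, with *Ptx3* higher and *S100a9* lower. In T cell-like cells over the same pair 0 of 6 were higher (6.92% of 6895 genes) and 5 of 6 (*Saa3*, *Slpi*, *Acod1*, *S100a8* and *S100a9*) lower (6.89%). These 5 all entered through Day 7 alone. On Day 7, 1 T cell-like cell held 43 of 56 *Slpi* UMIs and 1 held 12 of 29 *Acod1* UMIs, and without such cells 3 of 4 genes were lower, these 2 no longer being compared. In dendritic cell-like cells 2 of 5 (*Ptx3* and *Slpi*) were higher from Day 3 to Day 7 (3.99% of 7073 genes) and 1 of 5 (*Saa3*) lower (7.93%), and from Day 7 to Day 14 0 of 4 were higher (2.92% of 6893 genes) and 2 of 4 (*S100a8* and *S100a9*) lower (8.97%). *Ptx3* and *Slpi* in the first pair, and *S100a8* and *S100a9* in the second, entered through Day 7 alone. Without 1 Day 3 cell the *Saa3* ratio there was just under 2-fold and 0 were lower, and without 1 Day 14 cell that held 19 of 44 *Slpi* UMIs 3 of 4 were lower, *Slpi* at -1.42.

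**Figure D5:**
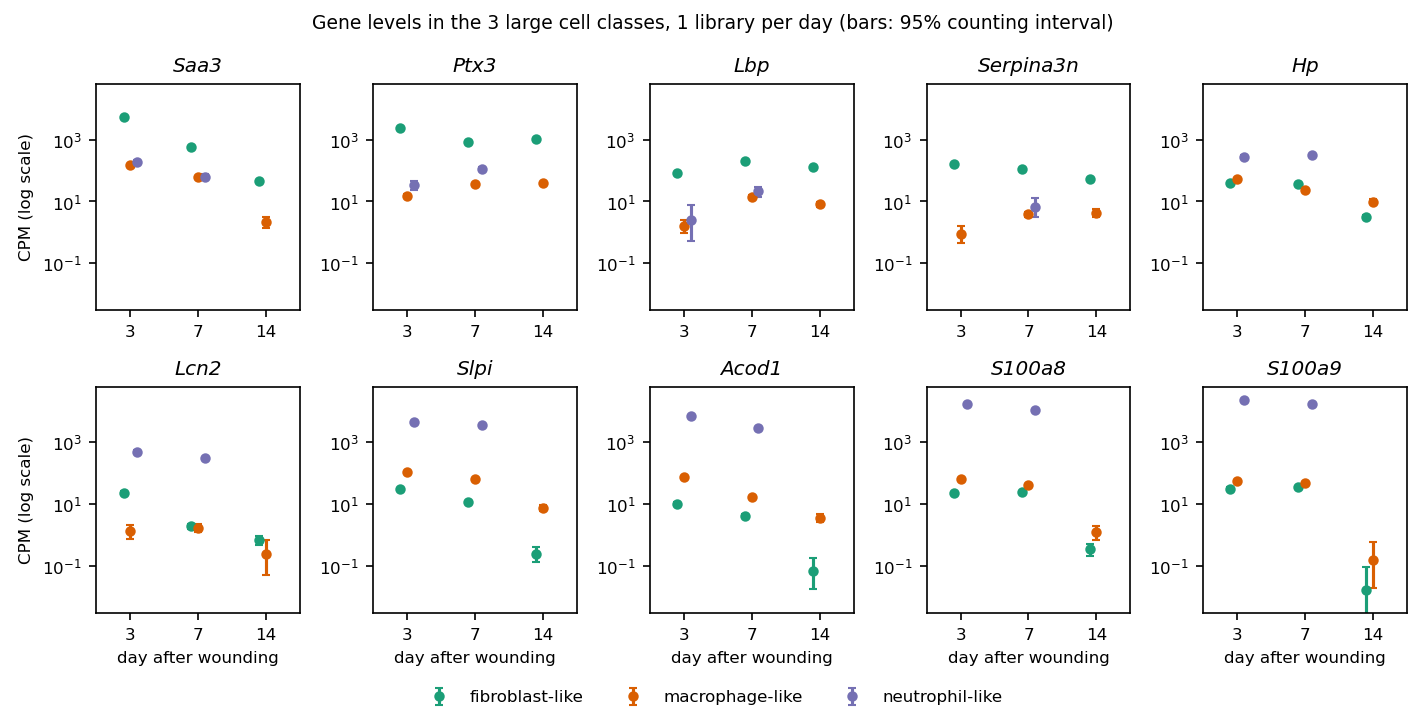
CPM (log scale) of each gene in fibroblast-like, macrophage-like and neutrophil-like cells on Days 3, 7 and 14, 1 library per day, with 95% counting intervals; classes with under 50 cells, or with 0 UMIs, have no point. *Saa3* is lower in each later library in all 3 classes, *Ptx3* in fibroblast-like cells is lowest on Day 7 and *Lbp* is highest there.

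Over all kept cells *Saa3* was at 3139, 378 and 35.8 CPM on Days 3, 7 and 14, *Acod1* at 258, 46.7 and 0.942 CPM, and *S100a8* at 611, 178 and 8.33 CPM. In such sums a different mix of classes and different levels within classes cannot be told apart, so the class levels of 1 library were combined with the class shares of UMIs of the next. These shares join cell number and depth, so the mix is not one of cell numbers. Fibroblast-like cells went from 11.6% to 32.2% of cells but from 56.1% to 63.9% of UMIs from Day 3 to Day 7. With Day 3 levels in the Day 7 mix of classes, *Saa3* would be at 3651 CPM and *S100a8* at 284 CPM. For *Saa3*, exchanging the levels alone gave a log2 difference of -3.21 and exchanging the mix alone 0.22, of -3.05 in all. For *S100a8* the levels alone gave -0.61 and the mix alone -1.10, of -1.78 in all. From Day 7 to Day 14 the mix alone gave -2.14 for *S100a8*, of -4.42 in all, and 0.26 for *Saa3*, of -3.40 in all. These mix values use Day 7 levels of unnamed (41 cells), epithelial cell-like (40 cells) and Schwann cell-like cells (10 cells). On Day 14 those 3 sets held 14.9%, 5.39% and 0.627% of UMIs. Their part in the mix values was not tested, and nothing is read from the sign of the *Saa3* value. The 2 parts need not add up to the whole, and the classes themselves changed clusters between libraries. *Lcn2*, *Slpi* and *S100a8* would have been higher on Day 14 by levels alone (1.69, 0.98 and 1.08), values that include the 21 neutrophil-like cells of Day 14.

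Genes related by function were taken from lists. Of 23 genes for other acute-phase proteins of the liver, such as *Saa1*, *Crp* and *Fga*, only 2 had enough UMIs to be compared in fibroblast-like cells, the ceruloplasmin gene *Cp* (65.3, 51.8 and 44.5 CPM) and the transferrin gene *Trf* (16.4, 39.8 and 21.6 CPM). *Trf* was higher in macrophage-like cells, at 174, 364 and 320 CPM, *Cp* reached 137 CPM in endothelial cell-like cells of Day 14, and the orosomucoid gene *Orm1* reached 90.4 CPM in epithelial cell-like cells of Day 14. Of 18 genes for inducing cytokines and their receptors, 12 were compared in fibroblast-like cells from Day 3 to Day 7, with 0 higher (4.49% of all genes) and 5 lower (9.04%; *Il6*, *Lif*, *Il6st*, *Osmr* and *Il1r1*). *Il6* was at 1617, 261 and 339.9 CPM, and *Il1b*, of which neutrophil-like cells had the most, at 17367 CPM on Day 3 and 6319 CPM on Day 7 there. Of 9 regulators of transcription, 0 were higher and 2 lower in these cells against the same shares of all genes (*Cebpb* and *Zc3h12a*), *Cebpb* being at 812, 310.1 and 548 CPM, and from Day 7 to Day 14 *Cebpd* alone was counted as higher, where 2.41% of all genes were (315 and 1072 CPM). Of 23 other antimicrobial genes, 5 were compared in macrophage-like cells from Day 3 to Day 7, with *Lyz1* higher (2.43% of all genes) and *Chil3* lower (5.27%), and lysozyme *Lyz2* was at 3263, 5729 and 7667 CPM. Of 11 receptors and partners, 9 were compared in these cells, against the same shares, with *Cd163*, the haptoglobin-haemoglobin receptor, higher and *Tlr2* and *Fpr2*, receptors for which serum amyloid A is a known ligand, lower. *Fpr2* was at 53.0 and 10.4 CPM, and *Cd14*, which receives lipopolysaccharide from the product of *Lbp*, at 1496, 749 and 1429 CPM over the 3 libraries.

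Across the 19 class and library levels with at least 50 cells, the genes most like each one by Pearson r of log2(CPM + 1), among 6761 genes, were looked up as a description. The closest to *S100a8* was *S100a9* (r = 0.980), to *Acod1* the histidine decarboxylase gene *Hdc* (0.972), to *Ptx3* *Efemp1* (0.971), to *Serpina3n* *Adamts5* (0.955), to *Slpi* *Tlr6* (0.935) and to *Lbp* *Ly6c1* (0.928). *Saa3* was closest to *Prg4* (0.846), *Lcn2* to *Lsmem1* (0.857) and *Hp* to *Phf21a* (0.905), with lower values. The 19 points share libraries and depth.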

How the data were processed

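Wound cells of 3 libraries were profiled by 3′-end droplet sequencing. The authors deposited a count matrix for each library, with whole UMI counts that had not been normalised, made with Cell Ranger 6.0.0 on mm10 according to the submitters' processing notes. The sum of counts per library sets the depth, and intervals cover counting error only. Cells with at least 500 UMIs, 200 genes and at most 10% mitochondrial UMIs were kept, and likely doublets (92, 1978 and 962 barcodes) were removed at 0.5 of the rate expected at 0.8% per 1000 cells. All libraries were clustered together without alignment (Leiden, leidenalg 0.10.2; Python 3.11.15, NumPy 2.4.6, SciPy 1.17.1, pandas 2.3.3, scikit-learn 1.9.0, python-igraph 0.11.9). Kept out of clustering were the 10 genes, their related genes, ribosomal protein genes, mitochondrial genes and *Gm42418*. Clusters were named from marker lists, and the thresholds for naming were changed once the clusters had been seen. The genes and lists were chosen with earlier results of these data known. All 10 genes are described, with up to 4 related genes of each list, those with the highest CPM, given values. Leading genes describe clusters only, and clusters within classes were singled out after their values were seen. The ratio intervals were tested on simulated data. The alternatives tried concerned cell filters, doublets, clustering, class assignment, scaling, gene filters, the fold limit and thinning.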

Additional observations from a re-analysis of the deposited data

Results flagged for a closer look

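Several genes differed in opposite directions between the same 2 libraries in different classes. The differences between classes were not tested, since each day is 1 library. From Day 3 to Day 7 the log2 ratio of *Ptx3* was -1.53 in fibroblast-like cells and 1.29 in macrophage-like, 1.74 in neutrophil-like and 1.47 in dendritic cell-like cells. The summed fibroblast markers went from 418 to 3923, 826 to 10104 and 383 to 3381 CPM in the last 3 classes, and their part was not tested. Over the same pair *Slpi* was at -1.46 in fibroblast-like and 1.60 in dendritic cell-like cells. From Day 7 to Day 14 *Saa3* was at -3.61 in fibroblast-like and -4.83 in macrophage-like cells and held 0 UMIs in T cell-like cells of Day 14, while it was at 1.75 in pericyte-like cells, where it turned to -1.72 without 1 Day 14 cell that held 41 of 45 UMIs. *Serpina3n* was at -1.01 in fibroblast-like cells, 1.37 in endothelial cell-like (0.95 without 1 Day 14 cell that held 7 of 27 UMIs) and 1.71 in pericyte-like cells, and *Lbp* at 1.57 in endothelial cell-like and -3.09 in pericyte-like cells, the last on a Day 7 level of which 1 cell held 15 of 23 UMIs (-1.58 without it).

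Cells outside the named classes also carried the genes. In the unnamed cluster 10 of Day 14 the levels were 41.1 CPM for *Saa3*, 101 CPM for *Lbp*, 240.4 CPM for *Ptx3*, 2.93 CPM for *Hp*, 276 CPM for *Serpina3n* and 2.30 CPM for *Slpi*, each above the limit that a count of 0 allows. Among barcodes left out for over 10% mitochondrial UMIs, 10 of the 10 genes had more than 3 UMIs in the Day 3, the Day 7 and the Day 14 library. On Day 7 *S100a8* was at 374 CPM and *S100a9* at 533 CPM in them, against 178 and 261 CPM in kept cells. *Slpi*, *Acod1* and *Lcn2* were also higher there, while *Saa3*, *Ptx3*, *Lbp*, *Serpina3n* and *Hp* were lower.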

How the results depend on the processing

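No paired analysis was possible because each day is 1 library. Among the log2 ratios recomputed under the alternatives, 695 stayed counted or not counted as before, of which 17, all of ratios not counted, changed sign. Another 67 were no longer counted, in part because a stricter gene filter or the limit of 4-fold applied, so not all of them fell under 2-fold. *Saa3* in macrophage-like cells from Day 7 to Day 14 lost the call in 1 alternative, although its alternative ratios ran from -5.52 to -4.25. A further 11 were newly counted in the same direction, and 6 changed sign, being counted before or after. The last were *Ptx3* in neutrophil-like cells from Day 3 to Day 7 (-1.59 with each cell's class taken from its own marker score) and *S100a8* and *S100a9* in macrophage-like cells from Day 7 to Day 14 (0.55 and 0.0088 with each library clustered alone), and 3 ratios that had been under 2-fold: *Hp* in neutrophil-like cells from Day 3 to Day 7 (-1.17 with at least 500 genes per cell) and *S100a8* and *S100a9* in fibroblast-like cells over the same pair (-1.64 and -1.29 as the mean CPM per cell). Of the counts of genes past the limit, 178 stayed within 1.5 times and 34 did not. The share of all genes was computed for the main processing alone. The counts below therefore describe dependence on the processing, and nothing is read from their size. With a limit of 4-fold, the higher counts were 1 (endothelial cell-like), 0 (fibroblast-like), 0 (macrophage-like) and 1 (neutrophil-like), and the lower counts from Day 3 to Day 7 were 2, 1 and 0 in fibroblast-, macrophage- and neutrophil-like cells. With a minimum mean of 50 CPM, the higher counts from Day 3 to Day 7 were 0 (macrophage-like) and 1 (neutrophil-like), and the lower counts were 0 (endothelial cell-like), 2 and 2 (both fibroblast-like pairs), 0 (macrophage-like, Day 7 to 14) and 1 (macrophage-like, Day 3 to 7). With no filter but 1 UMI, 3 were higher in macrophage-like cells from Day 3 to Day 7, and 6 and 8 were lower in endothelial cell-like and fibroblast-like cells from Day 7 to Day 14. Without doublet removal, 1 was higher and 4 lower in endothelial cell-like, 3 higher in fibroblast-like and 4 lower in neutrophil-like cells, and at the full doublet rate 1 and 3 were lower in endothelial cell-like and fibroblast-like cells from Day 7 to Day 14. With at least 500 genes per cell, 2 were higher in fibroblast-like cells, and 1 was higher and 7 were lower in neutrophil-like cells. Classes by marker score gave 1 higher in neutrophil-like and 1 lower in endothelial cell-like cells, the mean CPM per cell 1 higher in endothelial cell-like cells, and scaling without the 50 most abundant genes 2 higher in macrophage-like and 1 lower in neutrophil-like cells. With clusters weighted equally, 0 were higher in fibroblast-like, 0 lower in macrophage-like and 1 lower in neutrophil-like cells from Day 3 to Day 7. That alternative, those that moved cluster 10 into and cluster 16 out of the fibroblast-like class, and the one without the 1 cell with the most UMIs of a gene, were chosen after seeing the data. The cause of these shifts was not tested. Shares of cells with a UMI depended on depth, and 149 of the recomputed ones moved by more than their counting interval without thinning or at 1000 UMIs. The share of a gene's UMIs in the class that held the most was also set against all barcodes. In 24 cases it moved beyond its counting interval and in 6 it did not.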
